A study of Homo sapiens with 18 samples.

Results

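The genes described here encode subunits of the oxidative phosphorylation machinery and were chosen by symbol alone: 74 of the 78724 genes in the count table, of which 13 lie in the mitochondrial genome and 61 in the nucleus. By complex the 74 genes divide into 44 of complex I, 4 of complex II, 9 of complex III, 3 of complex IV and 14 of complex V. The symbols chosen take in no nuclear subunit of complex IV, and NDUFA4, now usually assigned to complex IV, is counted here with complex I because of its symbol. A total of 70 members, all 13 mitochondrial and 57 nuclear, had enough counts to be tested. The cells were THESC, a human endometrial stromal line immortalised with telomerase, here engineered by CRISPR and grown in blasticidin. The NT cells carried a non-targeting guide and are labelled WT, the U1U2 cells carried the U1U2 guides and are labelled PGRA/B-equivalent, and the promoter cells carried a promoter guide and are labelled PGRB-dominant, PGRA and PGRB being the isoforms of the progesterone receptor PGR. After a change to low serum, each line received 1 µM medroxyprogesterone acetate (MPA), a synthetic progestin, or vehicle (0.01% ethanol) for 72 hours in charcoal-stripped serum. Each of the 6 groups held 3 libraries, 18 in all. The labels do not say whether the 3 came from separate cultures or whether a line is 1 clone, so that p-values measure the spread between libraries of 1 line, which may be technical.

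Oxidative phosphorylation passes electrons from NADH through complex I, or from succinate through complex II, to complex III and complex IV, and complex V uses the resulting proton gradient to make ATP. The mitochondrial genome encodes core subunits of complexes I, III, IV and V and no subunit of complex II. It is transcribed from both strands as long precursors that are cut into mRNAs. The genes of MT-ATP8 and MT-ATP6 overlap in position, as do those of MT-ND4L and MT-ND4. Nuclear subunits are transcribed as separate genes and imported, and promoters of many of them bind NRF1, the ETS factor GABP or YY1. In the endometrium, progestins turn stromal cells into decidual cells, a change that alters their metabolism.

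A minority of the nuclear members hold each of 3 promoter cores, which their selection by symbol did not use. RefSeq promoter sequences (GRCh38.p14, 250 bases before and 50 from each start) matched 50 of the 61. On either strand, the NRF1 core GCGCATGCG was held by 8 of the 50 (16%) against 2.10% of 27305 promoters of the same length, and the YY1 core AAGATGGCG by 8 (16%) against 1.85%. The shorter ETS core CCGGAAG was held by 12 (24%) against 10.7%, and 23 of the 50 (46%) held at least 1 of the 3 cores against 13.65% of the 27305, while 27 held none. The YY1 core begins with AAG, which ends the ETS core, and ends in GCG, which begins the NRF1 core. Overlapping matches of different cores are therefore possible. A match is a description of letters and not a bound site. The 3 stretches shown are those in which every upstream core lay between 180 and 31 bases before the start and no GENCODE 29 exon overlapped, with the cores in capitals and the strand of the gene printed 5′ to 3′. ATP5PD is a stalk subunit of ATP synthase (chr17:75047000-75047149, minus strand), NDUFB4 an accessory subunit of complex I (chr3:120596156-120596305, plus strand) and UQCR11 a small subunit of complex III (chr19:1605493-1605642, minus strand). NDUFB4 holds the NRF1 core on both strands in overlapping positions, UQCR11 holds the ETS core in both orientations, and ATP5PD holds it once.
ATP5PD: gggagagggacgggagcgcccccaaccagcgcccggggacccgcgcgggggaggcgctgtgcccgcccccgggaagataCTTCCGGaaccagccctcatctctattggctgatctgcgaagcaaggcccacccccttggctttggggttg
NDUFB4: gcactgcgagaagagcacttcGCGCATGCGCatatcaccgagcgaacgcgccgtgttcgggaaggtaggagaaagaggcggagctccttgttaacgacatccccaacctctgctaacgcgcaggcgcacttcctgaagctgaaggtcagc
UQCR11: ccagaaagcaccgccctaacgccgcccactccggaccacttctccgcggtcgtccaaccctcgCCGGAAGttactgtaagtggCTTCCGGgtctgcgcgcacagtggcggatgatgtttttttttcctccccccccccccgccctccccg

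Per length, every mitochondrial member lay above every nuclear one. Levels are CPM, counts scaled to the total of each library, divided by the length of the longest GENCODE 29 transcript, averaged over the 18 libraries. Among the mitochondrial members they ran from 681 CPM per kb for MT-ATP8, a complex V subunit, to 2482 for MT-CO2 of complex IV, with MT-ND4 (complex I) at 2334 and MT-CO1 (complex IV) at 2057. The nuclear members ran from 0.0528 to 200 CPM per kb, with medians of 12.7 over the 37 members of complex I, 28.9 over the 4 of complex II, 26.9 over the 8 of complex III and 35.2 over the 12 of complex V. ATP5F1B, the catalytic beta subunit of ATP synthase, and NDUFS5, an accessory subunit of complex I, were highest at 200.2 each.

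The low end held most of the GC-rich transcripts, SDHA and NDUFV2, whose pseudogenes held more counts than they did, and others such as NDUFA7, NDUFA9 and NDUFS8. Pseudogenes were not confined to it: NDUFS5, among the highest, has 6. The 6 nuclear members with a GC content of at least 60% had a median of 0.680 CPM, against 22.5 CPM for the 17 members between 50% and 60% and 61.2 CPM for the 38 below 50%. The highest library exceeded the lowest by a median of 7.04 times in the 6 GC-rich members and 1.69 times in the 38. NDUFB7, a complex I subunit with 64.97% GC, received 3 to 50 counts per library, and NDUFS7, a core iron-sulfur subunit of complex I, 1 to 9. SDHA, the flavoprotein that oxidises succinate, received 39 to 145 counts per library and 1.20 CPM per kb, while pseudogenes carrying its name held 10179 counts in all, 643% of its own. NDUFV2, another core complex I subunit, received 1 to 15 counts and its pseudogene 401% of its own total. The counts of SDHA and NDUFV2 are therefore uncertain, since reads of near-identical copies may have been split. NDUFV2, NDUFS7, NDUFA7 and NDUFA13 were the 4 members too low to test.

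**Figure D1:**
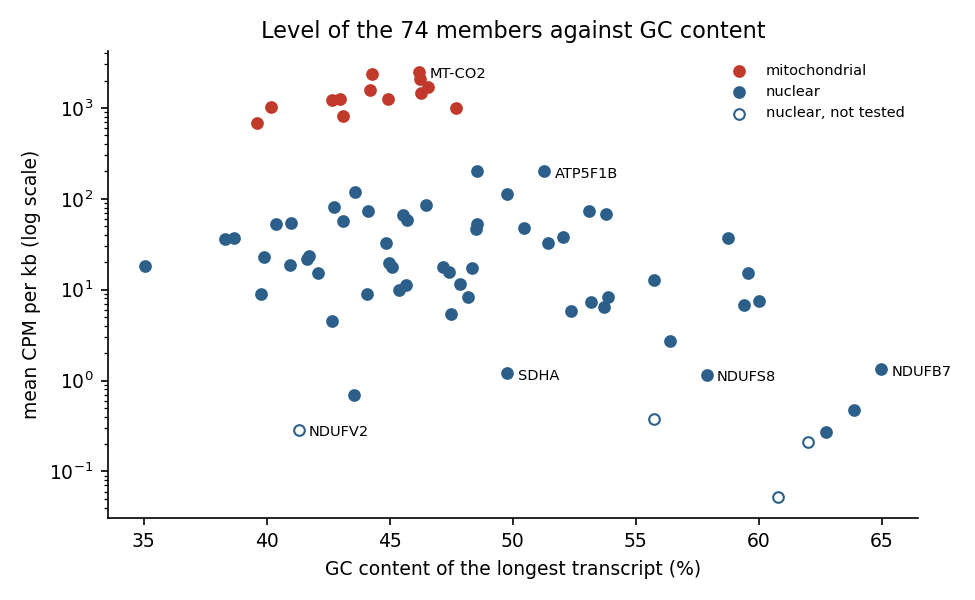
Mean level of each of the 74 members (CPM per kb of the longest transcript, log scale, 18 libraries) against the GC content of that transcript; filled points are tested members and open points the 4 that were too low. The 13 mitochondrial members lie above 600 CPM per kb, and 5 of the 6 nuclear members with at least 60% GC, all but NDUFB11, lie near the bottom with SDHA and NDUFV2.

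Total counts ran from 11.9 to 33.4 M per library. The mitochondrial members took 1.32 to 2.49% of all counts and the nuclear members 0.321 to 0.446%. PGR, the gene the guides address, stood at 120 to 153 CPM in NT vehicle, 531 to 674 in U1U2 vehicle and 395 to 475 in promoter vehicle, and at 76.2 to 95.1, 226 to 291 and 264 to 303 CPM in the same lines with MPA. All 14 stromal markers were detected in all 18 libraries, with VIM at 1162 CPM or more, while CD3E, the T cell marker, had 0 counts in 18 of 18. Some markers of other cell types were present in every library. PTPRC, the pan-leukocyte marker, had 33 to 143 counts, and the endothelial receptor TEK stood at 42.2 to 74.5 CPM. The epithelial keratins KRT18 and KRT19 stood at 6.70 to 13.3 CPM and 7.31 to 31.6 CPM. The other endothelial markers listed (PECAM1, CDH5, VWF, KDR and EMCN) had at most 11 counts in a library. The other leukocyte markers (CD14, CD68, CD79A, NKG7 and LYZ) had at most 5. Among the other epithelial markers, CDH1 and PAX8 had at most 6 counts and KRT7 at most 10. EPCAM had 3 to 34 counts, KRT8 35 to 152 and MUC1 48 to 166.

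A group of 6 libraries stood apart from the rest of their own groups, on a component of variation within groups that was computed from 15483 genes with all members left out and held 24.5% of that variation. They were replicate 3 of NT MPA, replicates 2 and 3 of U1U2 vehicle and replicate 1 of U1U2 MPA. Replicates 1 and 2 of promoter vehicle were the others. The cut was a loading above 0.1, and no library of NT vehicle or promoter MPA passed it. The loadings of the 6 were 0.164 to 0.478, against -0.425 to 0.0574 in the other 12. Loadings are relative to the mean of each group. A group of 3 like libraries therefore has loadings near 0, whatever their kind. The split was found in these data, and no test of it is given. The nuclear members summed to 4088 to 4728 CPM in the 6 and 3226 to 3806 CPM in the other 12. The mitochondrial members summed to 12904 to 17891 CPM in the 6 and 16789 to 24836 CPM in the other 12. The ratio of the sums was 3.08 to 3.78 in the 6 and 4.90 to 6.53 in the other 12, with no overlap.

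**Figure D2:**
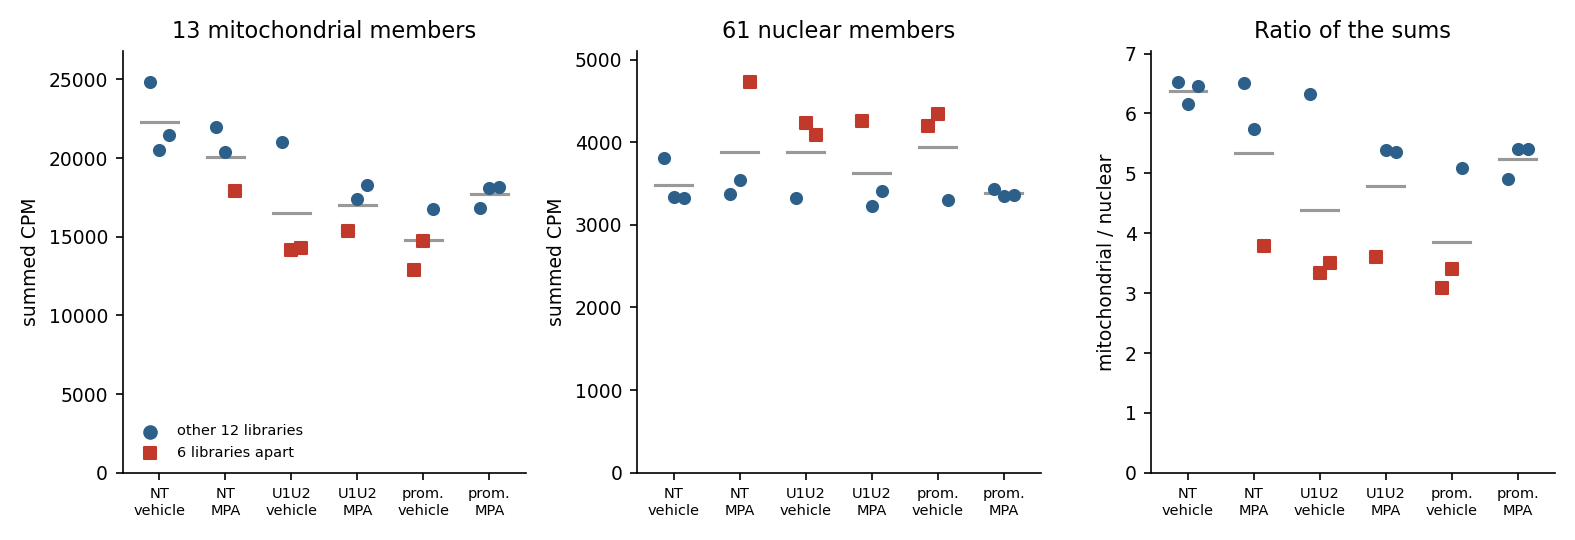
Summed CPM of the 13 mitochondrial members, summed CPM of the 61 nuclear members and the ratio of the sums, per library, by group; grey lines are group means over 3 libraries and red squares the 6 libraries that stand apart. The squares lie at ratios of 3.08 to 3.78 and the circles at 4.90 to 6.53.

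Among the tested nuclear members, 17 of 57 lay wholly above the other 12 libraries in these 6 and 2 wholly below, and 46 had a higher median in the 6. All 13 mitochondrial members had a lower median, 5 of them with no overlap. Over all 15558 genes tested, 686 lay wholly above and 375 wholly below. SDHC, a membrane anchor of complex II, was highest in ratio: it ran from 88.1 to 97.5 CPM in the 6 and from 37.0 to 54.2 CPM in the other 12, 2.19 times by medians. The epsilon subunit of ATP synthase, ATP5F1E, ran from 160.9 to 228 CPM in the 6 and from 96.6 to 160.7 CPM in the 12, and NDUFA4 from 137 to 192 and from 79.3 to 114 CPM. The catalytic subunits ATP5F1A and ATP5F1B also lay wholly above, at 1.52 times each. The 2 nuclear members wholly below were NDUFA5 (0.752 times) and NDUFV3 (0.832 times), both of complex I. Of the mitochondrial members, MT-ND6, the only one encoded on the light strand, ran from 353 to 504 CPM in the 6 and from 635 to 937 CPM in the 12. MT-ATP8, MT-ND1, MT-ND2 and MT-ND5 were the others without overlap, whereas MT-CO1 and MT-ND4L had ratios of 0.878 and 0.880 and overlapped. A nuclear pseudogene of a mitochondrial gene, MTCO1P12, stood at 15.1 to 20.9 CPM in the 6 and 3.51 to 7.67 CPM in the 12, whereas all nuclear copies of mitochondrial genes summed to 199 to 262 CPM in the 6 and 276 to 468 CPM in the 12, the opposite direction. What sets these libraries apart was not tested, and they are spread unevenly over the groups. Fits with a term for them, or without them, are therefore given beside the main comparisons, and all other values are from the fit of all 18 libraries.

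**Figure D3:**
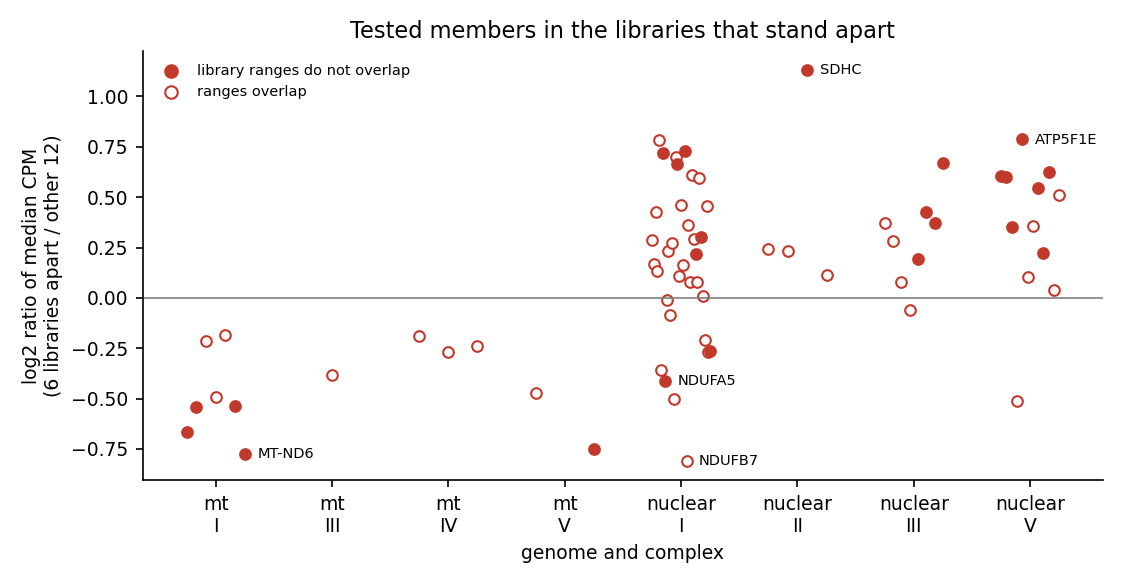
Log2 ratio of the median CPM in the 6 libraries that stand apart to that in the other 12, for each of the 70 tested members by genome and complex; filled points have library ranges that do not overlap. All 13 mitochondrial members lie below 0 and 46 of 57 nuclear members above it, SDHC at the top.

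In vehicle, 11 of the 13 mitochondrial members were lower in promoter cells than in NT cells, by 0.42 to 0.91 on the log2 scale; 6.65% of all genes tested were called in this comparison, 3.05% as higher and 3.61% as lower. This comparison sets the promoter line against the NT line before any progestin is added. With 1 line per guide, an effect of the guide and another difference between the lines cannot be told apart. The called members were 6 of 7 in complex I, MT-CYB in complex III, all 3 in complex IV and 1 of 2 in complex V. MT-ND1 (log2 fold change -0.65, adjusted p = 0.0723) and MT-ATP8 (-0.82, adjusted p = 0.0791) were not called. In all 13 the 3 promoter libraries lay below the 3 NT libraries. The share of all genes that separate in this way, here and in the counts of single libraries below, is not given. The 13 genes share long precursors, so they are not 13 independent results. In bulk RNA, fewer cells of a type and less RNA per cell cannot be told apart. Of the marker lists, 3 of 14 stromal markers were lower in the same comparison (DCN -0.82, LUM -0.66 and PDGFRA -0.61, log2 fold changes) and TEK, the 1 endothelial marker tested, was 0.36 higher; their part in the result was not tested.

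MT-ND4L, a small membrane subunit of complex I (M:10470-10766, overlapping the first bases of MT-ND4), stood at 309, 283 and 285 CPM in the NT vehicle libraries 1 to 3. In the promoter vehicle libraries it stood at 180.3, 214 and 210.1 CPM, and it fell by 0.54 ± 0.11 (SE) on the log2 scale, with an edgeR adjusted p of 0.00414; values after ± beside a log2 fold change are standard errors throughout. MT-ND3, another membrane subunit of complex I (M:10059-10404), stood at 535, 428 and 428 CPM in NT vehicle and 266, 330.3 and 327 CPM in promoter vehicle, with a log2 fold change of -0.59 ± 0.12 and an adjusted p of 0.00424. Both genes were low in all 3 promoter libraries, whether or not the library stood apart. MT-CYB, the cytochrome b of complex III, stood at 2342, 1865 and 1904 CPM in NT vehicle and 1233, 1353 and 1486 CPM in promoter vehicle (log2 fold change -0.59 ± 0.13, adjusted p = 0.0108). MT-CO1, the catalytic subunit of complex IV, stood at 4273, 3402 and 3683 CPM against 2487, 2951 and 2665 CPM (-0.49 ± 0.11, adjusted p = 0.0118). MT-CO1 and MT-ND4L thus had promoter libraries of like level, with no gap between libraries 1 and 2 and library 3. MT-ND6 (M:14149-14673, light strand) showed the largest fall, 0.91 ± 0.26 with an adjusted p of 0.0417, from 937, 851 and 869.8 CPM in NT vehicle to 353, 405 and 652 CPM in promoter vehicle. Here the promoter libraries that stand apart, 1 and 2, lay well below library 3. The strand setting of the counts is not given, so reads from the opposite strand may be part of the MT-ND6 values.

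The direction was the same without the 6 libraries, and the size smaller. With a term for the 6 libraries in the model, all 13 log2 fold changes stayed below 0, between -0.50 and -0.30, and 8 mitochondrial members were called: MT-ND2, MT-ND3, MT-ND4L, MT-ND5, MT-ND6, MT-CYB, MT-CO1 and MT-ATP6. MT-ND6 fell by 0.47 ± 0.094 in that fit (adjusted p = 0.00572) and MT-ND3 by 0.50 ± 0.11 (adjusted p = 0.0135). Without the 6 libraries, promoter vehicle keeps 1 library, assumed to vary like the other groups; all 13 log2 fold changes were again below 0, between -0.50 and -0.27, and 0 members were called by edgeR, with 17 at an unadjusted p under 0.05. That library, promoter vehicle 3, lay below all 3 NT vehicle libraries in 13 of 13 mitochondrial members. The 6.65% of all genes called in this comparison belongs to the fit of all 18 libraries without the term. The shares with the term, without the 6 libraries or without a single library are not given here. The count of called lower members moved from 12 to as few as 2 when promoter vehicle 1 was left out, to 4 without NT vehicle 1, to 5 without NT vehicle 2 or promoter vehicle 2, and to 6 without NT vehicle 3.

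**Figure D4:**
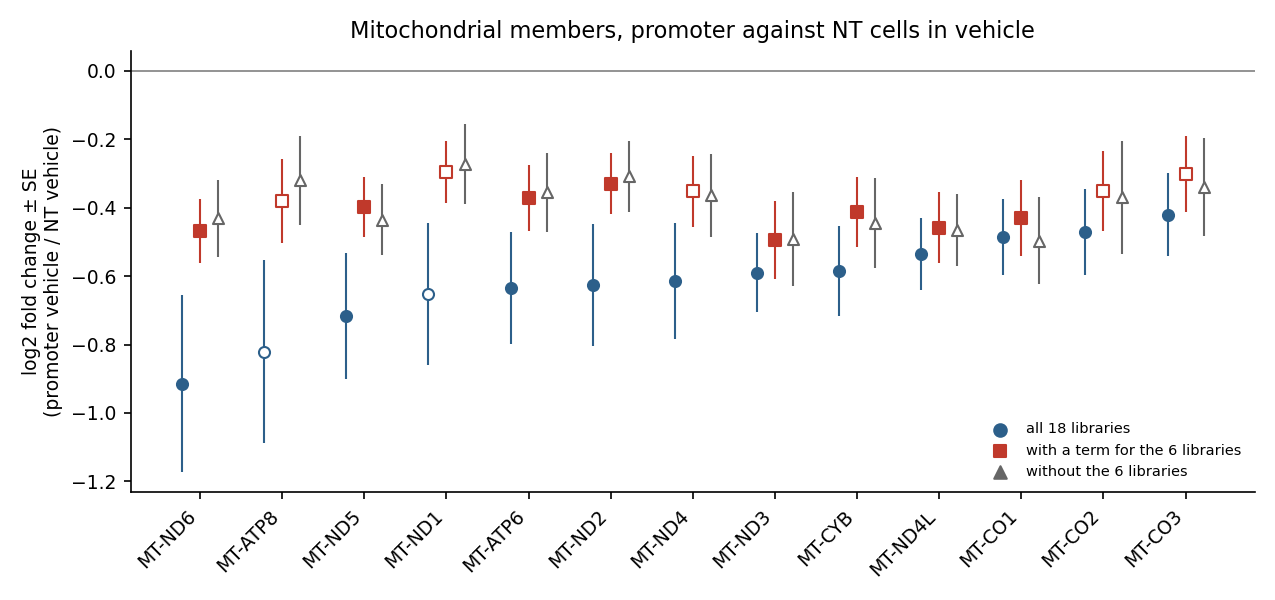
Log2 fold change of the 13 mitochondrial members between promoter and NT cells in vehicle, with its standard error, from all 18 libraries (circles), with a term for the 6 libraries that stand apart (squares) and without them (triangles); filled points have an adjusted p under 0.05. All points lie below 0, and the circles lie lowest for MT-ND6 and MT-ATP8.

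Of the 57 nuclear members, 1 was called higher and 1 lower in the same comparison. NDUFS8, an iron-sulfur subunit of complex I (chr11:68030617-68036644), stood at 2.43, 1.91 and 2.23 CPM in NT vehicle and 5.31, 4.08 and 4.62 CPM in promoter vehicle, 1.12 ± 0.30 higher on the log2 scale with an edgeR adjusted p of 0.0323. It had 29 to 171 counts per library and 57.88% GC. UQCRB, a small subunit of complex III (chr8:96225920-96235634), stood at 239.7, 230.0 and 239.6 CPM in NT vehicle and 183, 209 and 187 CPM in promoter vehicle, and it fell by 0.29 ± 0.086 (adjusted p = 0.0490). NDUFS8 did not pass with the term for the 6 libraries (1.07 ± 0.34, adjusted p = 0.0731), where UQCRB did (-0.36 ± 0.080, adjusted p = 0.0109) together with ATP5F1E (-0.46 ± 0.13, adjusted p = 0.0350). The NDUFS8 call was also lost without NT vehicle 2, NT vehicle 3 or promoter vehicle 1. The median over the 57 nuclear members was 0.14, against -0.00077 over all genes, and became -0.049 with the term.

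The U1U2 cells differed from NT cells in vehicle in 1 member. MT-ND3 stood at 363, 267 and 287 CPM in the U1U2 vehicle libraries, all below the NT libraries given above, and fell by 0.60 ± 0.12 (adjusted p = 0.0213); 1.12% of all genes were called in this comparison, 0.694% as lower. All 13 mitochondrial members had log2 fold changes below 0, between -0.76 and -0.31 with a median of -0.46, and 13 of 13 had an unadjusted p under 0.05. These genes share long precursors and the same libraries, so they are not 13 independent results. The share of all genes with an unadjusted p under 0.05 is not given, here or elsewhere. The libraries were unlike each other: replicates 2 and 3, which stand apart, lay below all NT vehicle libraries in 13 of 13 mitochondrial members, and replicate 1 in 6 of 13. MT-ND4, a core complex I subunit, shows it: 3881, 2367 and 2498 CPM in U1U2 vehicle against 4243, 3691 and 3893 CPM in NT vehicle. Leaving out U1U2 vehicle 1 raised the count of called lower members to 14, of which 13 are mitochondrial, and leaving out U1U2 vehicle 2 or 3, or NT vehicle 1 or 2, brought it to 0. MT-ND3 was called with the term for the 6 libraries (-0.51 ± 0.11, adjusted p = 0.0443) and not without them (-0.36 ± 0.14, adjusted p = 0.746), where 1 U1U2 vehicle library is left. Between promoter and U1U2 cells in vehicle 0 members were called (0.784% of all genes), with 2 at an unadjusted p under 0.05 and 0 called by DESeq2. Both lines are compared with the same NT libraries, so their values for the members are not independent.

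With MPA present, 0 members differed between lines. The background was 1.7% of genes between U1U2 and NT, 4.12% between promoter and NT and 0.328% between promoter and U1U2, with 5, 3 and 0 members at an unadjusted p under 0.05 by edgeR and 0 called by DESeq2 in each. The mitochondrial members again lay below NT: all 13 log2 fold changes were below 0 in U1U2 cells (median -0.22) and in promoter cells (median -0.15). MT-CO1 stood at 3748, 3465 and 3593 CPM in NT MPA and at 2794, 3001 and 3015 CPM in promoter MPA, without overlap, a log2 fold change of -0.29 ± 0.11 with an adjusted p of 0.194. The third NT MPA library stands apart and is itself low in several mitochondrial members: MT-ND5, a core complex I subunit, was at 2883, 2643 and 1939 CPM there. With the term for the 6 libraries, MT-ATP6, the proton channel subunit of complex V (-0.32 ± 0.088, adjusted p = 0.0441), and MT-CYB (-0.34 ± 0.094, adjusted p = 0.0443) were lower in promoter than in NT cells with MPA.

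In the fit of all 18 libraries, MPA changed no member past the threshold in any line. In the NT line 5.87% of all genes were called, in the U1U2 line 11.6% and in the promoter line 15%, and of the 70 tested members 6, 3 and 10 had an unadjusted p under 0.05. With the term for the 6 libraries, SDHD, a membrane anchor of complex II, was called higher in U1U2 cells (log2 fold change 0.39 ± 0.13, adjusted p = 0.0487, against 0.31 ± 0.15 without the term). NDUFS4, an accessory subunit of complex I, was then called higher in promoter cells (0.21 ± 0.068, adjusted p = 0.0419), where its estimate without the term was -0.098 ± 0.16. Without the 6 libraries neither was called, at adjusted p = 0.562 for SDHD and 0.354 for NDUFS4. DESeq2 called 0 members in NT cells, NDUFB7 and UQCRC1 as higher in U1U2 cells, and NDUFC1 as lower in promoter cells. Leaving out NT vehicle 1 called UQCRC1 higher in NT cells, and in U1U2 cells leaving out U1U2 MPA 1 called UQCRC1 and leaving out U1U2 MPA 3 called NDUFB5 higher. Leaving out promoter vehicle 3, which does not stand apart, called 5 members in promoter cells: MT-ND1 and MT-ND6 higher, and ATP5MC3, NDUFC1 and SDHC lower. In NT cells the mitochondrial members had a median log2 fold change of -0.15 and the nuclear members 0.12, and 13 of 13 and 14 of 57 lay below 0. In U1U2 cells the medians were 0.046 and -0.092. In promoter cells they were 0.25 and -0.19, and 13 of 13 mitochondrial members lay above 0 and 48 of 57 nuclear members below it. The libraries that stand apart are spread unevenly over these groups: promoter vehicle holds 2 of them and promoter MPA 0, NT vehicle 0 and NT MPA 1. Their part in these medians was not tested. Without the 6 libraries the medians in promoter cells were 0.060 and -0.0090, with 11 of 13 mitochondrial and 27 of 57 nuclear members above 0.

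In the fit of all 18 libraries, the nuclear members nearest to a call under MPA were NDUFC1 and NDUFB7 of complex I and UQCRC1 of complex III. UQCRC1, a core subunit of complex III, stood at 28.3, 16.4 and 17.2 CPM in NT vehicle and 25.2, 38.8 and 32.9 CPM with MPA (log2 fold change 0.66 ± 0.23, adjusted p = 0.114). In U1U2 cells it stood at 20.9, 26.9 and 24.7 CPM in vehicle and 30.97, 32.1 and 51.2 CPM with MPA (0.66 ± 0.22, adjusted p = 0.0630), without overlap. In promoter cells it stood at 32.0, 23.4 and 28.1 CPM and 45.4, 36.1 and 36.0 CPM (0.49 ± 0.22, adjusted p = 0.159), again without overlap. UQCRC1 had a positive estimate in each line and was not called, while offsets for GC content and length called it higher in all 3 lines; the deviations of single libraries from their group means correlated with gene GC content by -0.55 to 0.67 (Spearman, across 14625 genes, which are not independent replicates). NDUFC1, an accessory subunit of complex I, stood at 28.3, 29.9 and 19.6 CPM in promoter vehicle and 16.5, 16.7 and 15.5 CPM in promoter MPA (-0.67 ± 0.22, adjusted p = 0.0507). The high vehicle libraries, 1 and 2, are those that stand apart, and with the term for the 6 libraries the log2 fold change of NDUFC1 was -0.25 ± 0.11 (adjusted p = 0.153). UQCRC1 moved little with the term (0.68, 0.65 and 0.47 in NT, U1U2 and promoter cells) and was not called. NDUFB7 had the highest estimate, 2.03 ± 0.71 in U1U2 cells (adjusted p = 0.0770), from 0.276, 0.250 and 0.288 CPM in vehicle to 0.609, 0.951 and 1.70 CPM with MPA, on few counts; with the term it was 1.61 ± 0.71 (adjusted p = 0.156).

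Differences between the MPA responses of the lines were tested directly and 0 members were called. The background was 0.206% of genes for U1U2 against NT, 1.54% for promoter against NT and 0.0129% for promoter against U1U2, and 3, 14 and 3 members had an unadjusted p under 0.05 by edgeR. For promoter against NT the response of MT-ND3 differed by 0.54 ± 0.16 (adjusted p = 0.121) and that of NDUFS8 by -1.37 ± 0.41 (adjusted p = 0.124), both of which DESeq2 called. With the term for the 6 libraries these were 0.40 ± 0.16 (adjusted p = 0.416) and -1.30 ± 0.47 (adjusted p = 0.298). The group means of NDUFS8 were 2.19 ± 0.263 and 3.82 ± 0.649 CPM (SD, n = 3) in NT vehicle and NT MPA, and 4.67 ± 0.618 and 3.22 ± 0.817 CPM in promoter vehicle and promoter MPA.

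**Figure D5:**
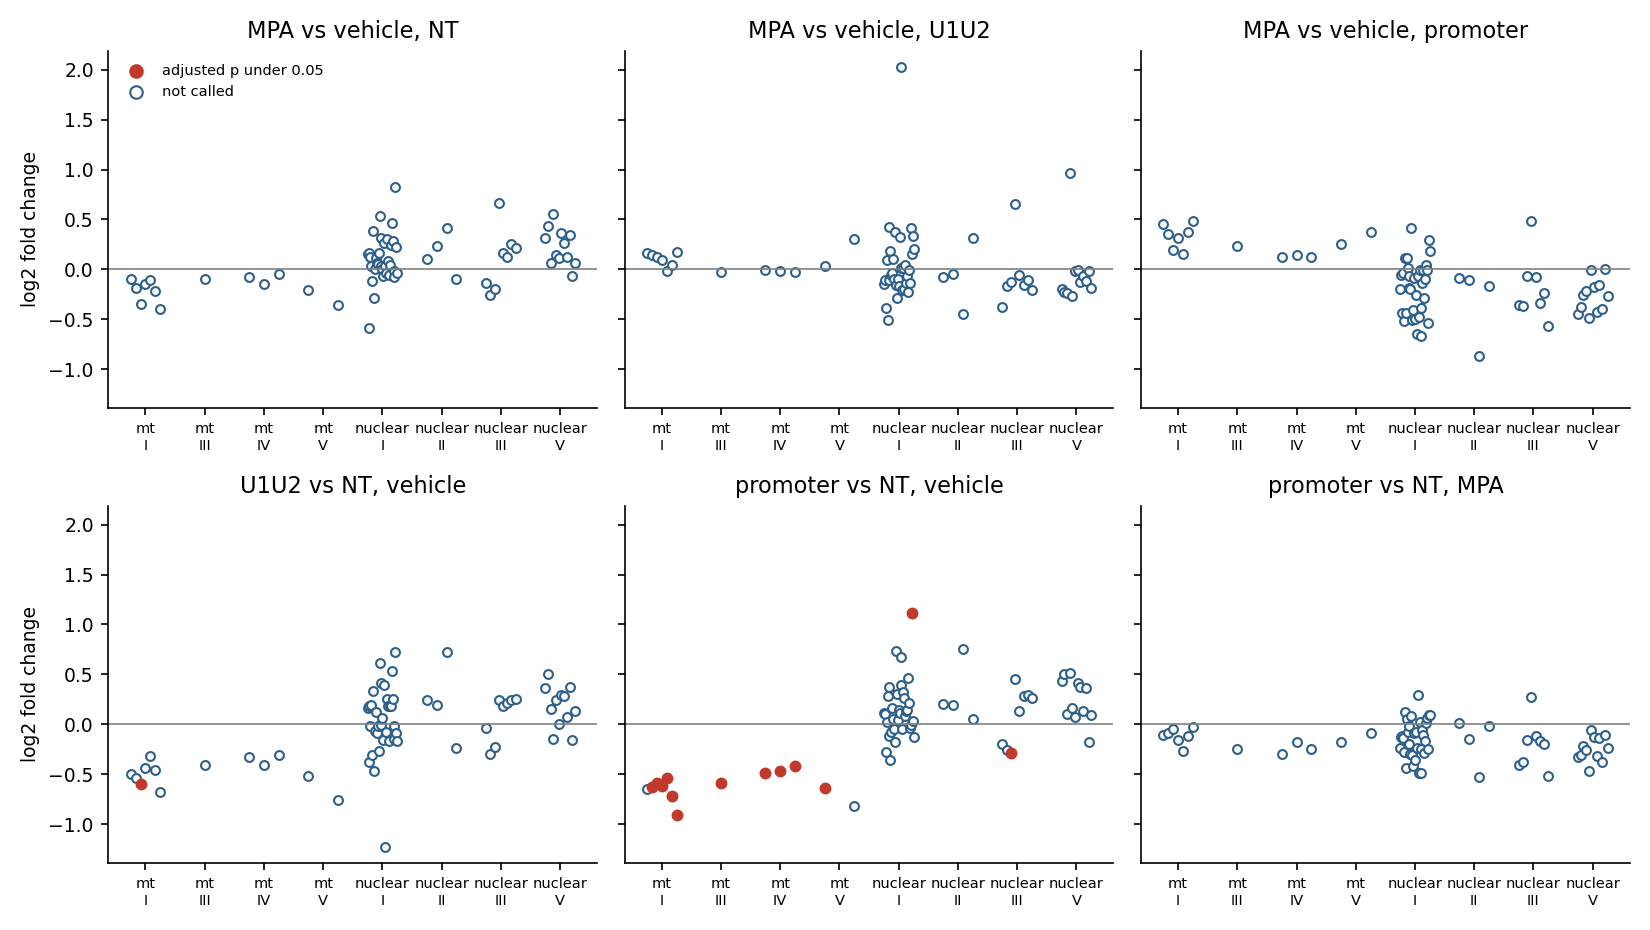
Log2 fold changes of the 70 tested members by genome and complex in 6 of the 9 comparisons of groups; red filled points have an adjusted p under 0.05. Called members appear in 2 panels, 1 in U1U2 against NT in vehicle and 13 in promoter against NT in vehicle, and the MPA panels hold none.

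Genes that serve the same machinery but fall outside the symbols chosen also showed few calls. Of the 11 tested nuclear subunits of complex IV, 0 were called in any of the 3 MPA comparisons or in promoter against NT in vehicle, with medians of 0.056, -0.18, -0.22 and 0.10. In promoter against NT in vehicle, where 6.65% of all genes were called, the 16S ribosomal RNA of the mitochondrion, MT-RNR2, fell by 0.55 ± 0.11 (adjusted p = 0.00386), 1 of 2 mitochondrial rRNAs, and 0 of 14 genes for mitochondrial transcription and replication and 0 of 17 for mitochondrial RNA processing were called. UCP2, an inner membrane carrier of the uncoupling protein family, was 1.12 ± 0.22 higher there (adjusted p = 0.00384), 1 of 8 carriers and porins. IDH3A, a subunit of the NAD-dependent isocitrate dehydrogenase, was 0.43 ± 0.083 higher (adjusted p = 0.00386), 1 of 12 citric acid cycle enzymes. These 3 genes were also called with the term for the 6 libraries, at -0.57, 0.98 and 0.38, as were the 12S rRNA MT-RNR1 (-0.51 ± 0.15, adjusted p = 0.0474) and the mitochondrial oligoribonuclease REXO2 of the RNA processing list (-0.36 ± 0.071, adjusted p = 0.00544). Without the 6 libraries MT-RNR2, UCP2 and IDH3A were not called (adjusted p = 0.0783, 0.175 and 0.126), at log2 fold changes of -0.60, 0.99 and 0.42.

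Under MPA, 12 genes of pyruvate dehydrogenase and its regulators were tested; the share of all genes called was 5.87% in NT, 11.6% in U1U2 and 15% in promoter cells. In U1U2 cells 2 of 12 rose and 2 fell: MPC1, part of the mitochondrial pyruvate carrier, rose by 0.45 ± 0.12 (adjusted p = 0.0158) and PDHX, a structural protein of the complex, by 0.27 ± 0.083 (adjusted p = 0.0390), while PDK3, a kinase that inactivates it, fell by 0.55 ± 0.11 (adjusted p = 0.00246) and PDP2, a phosphatase that activates it, fell by 0.29 ± 0.073 (adjusted p = 0.0124). In promoter cells MPC1 rose (0.36 ± 0.12, adjusted p = 0.0475) and PDK3 and PDP2 fell by 0.61 and by 0.37 (adjusted p = 0.000743 and 0.00140), whereas in NT cells 0 of 12 were called. The complex I assembly factors held 1 of 14 called higher in NT cells, NDUFAF1 (0.38 ± 0.10, adjusted p = 0.0372), and 1 higher in U1U2 cells, NDUFAF2 (0.49 ± 0.14, adjusted p = 0.0232). In promoter cells NDUFAF2 rose (0.56 ± 0.13, adjusted p = 0.00744) and TMEM126B, another assembly factor, fell by 0.46 ± 0.15 (adjusted p = 0.0477). PPARGC1B, a coactivator of mitochondrial gene expression, fell by 0.76 ± 0.17 in U1U2 cells (adjusted p = 0.00617) and by 0.67 ± 0.18 in promoter cells (adjusted p = 0.0146), 1 of 11 biogenesis regulators in each line, a share no higher than that of all genes. With the term for the 6 libraries MPC1 in promoter cells (0.26 ± 0.11, adjusted p = 0.145) and TMEM126B (-0.25 ± 0.13, adjusted p = 0.230) lost their calls, NDUFAF1 was also called higher in promoter cells (0.27 ± 0.072, adjusted p = 0.0170), and the other calls named here held. Without the 6 libraries, of these genes only PDK3 in U1U2 cells (adjusted p = 0.0457) and PDP2 in promoter cells (adjusted p = 0.0376) were called, both lower.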

How the data were processed

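The deposited table holds raw counts per gene for 18 libraries from a poly(A)-selecting stranded kit, per the labels' protocols. The submitters' processing notes name STAR 2.6.0c, hg38, R 4.4.1 and edgeR 4.2.2; the counting tool, its strand setting and the annotation are not given in the sources used here. A second deposited table, of log2 CPM, was not used. Members were found by symbol; positions, lengths and GC content came from GENCODE 29 (GRCh38). The members, pathway lists and marker lists were chosen with earlier results of these data known. Genes were filtered with filterByExpr (minimum count 10), which kept 15558, scaled by TMM and fitted over all 18 libraries with edgeR 4.0.16 (R 4.3.3, robust quasi-likelihood) in 9 comparisons of groups and 3 differences of MPA responses. Benjamini-Hochberg adjustment ran over all genes tested; called means an adjusted p under 0.05. Any member could be named, with values per library for called and mitochondrial members; the uncalled nuclear members given by library were chosen after their values were seen. The fit was tested on simulated data. Alternatives included DESeq2 1.42.0, no filter, only the groups compared, a replicate block, GC and length offsets, and leaving out each library. The labels give all libraries 1 batch. CPM shares cover counting error only.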

Additional observations from a re-analysis of the deposited data

How the results depend on the processing

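No member called in the fit of all 18 libraries changed direction under any alternative; the number of calls and several medians moved. DESeq2's size factors and leaving mitochondrial genes out of the library sizes changed no count by more than 1.5 times, and UQCRB then lost its call in promoter against NT cells in vehicle. Without a filter on low counts (40165 genes) calls were more numerous: 6 members higher and 1 lower for MPA in NT cells, 2 and 1 in U1U2 cells, 8 and 14 in promoter cells, 8 and 11 for U1U2 against NT in vehicle, 12 higher for promoter against NT in vehicle, 1 higher for promoter against U1U2 in vehicle, 4 lower for promoter against NT with MPA, and 2 and 3, and 6 and 14, for the difference of MPA response of U1U2 and of promoter cells from NT cells. The cause was not tested. The counts in this section are given without the share of all genes called under each alternative. DESeq2's Wald test called 2 members higher for MPA in U1U2 cells, 1 lower in promoter cells, 2 lower for U1U2 against NT in vehicle, and 1 higher and 1 lower for the MPA response of promoter against NT cells. With only the groups compared in the fit, 1 member was higher for MPA in U1U2 cells, 1 higher and 7 lower in promoter cells, 0 lower for U1U2 against NT in vehicle, 4 lower for promoter against NT in vehicle, and 1 lower for the MPA response of promoter against NT cells. GC and length offsets gave 1 higher for MPA in NT cells, 2 in U1U2 cells, 3 higher and 1 lower in promoter cells, 2 higher for promoter against NT in vehicle, and 1 lower for the MPA response of promoter against NT cells.

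Replicate numbers did not pair the libraries: same-numbered libraries of different groups had correlations of -0.52 to 0.50 (45 pairs, median -0.048), and 4 of 18 correlated best with their own number. With the replicate block, promoter against NT in vehicle held 0 higher and 4 lower calls (MT-CO1, MT-CYB, MT-ND3 and MT-ND4L), and no other count moved by more than 1.5 times.

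The 6 libraries that stand apart were found after seeing the data. Without them, 0 members were called lower for U1U2 against NT in vehicle and 0 higher and 0 lower for promoter against NT in vehicle. With a term for them, 1 member was higher for MPA in U1U2 cells (SDHD) and 1 in promoter cells (NDUFS4), 0 were higher for promoter against NT in vehicle, and 2 were lower for promoter against NT with MPA. Medians without them, mitochondrial first, were -0.24 (MPA in U1U2 cells), 0.060 and -0.0090 (MPA in promoter cells), -0.098 and -0.088 (U1U2 against NT, vehicle), -0.37 (promoter against NT, vehicle; mitochondrial only), 0.012 (promoter against U1U2, MPA; nuclear only), -0.15 and 0.082 (MPA response, U1U2 against NT) and 0.13 and -0.010 (MPA response, promoter against NT). With the term they were 0.055 and 0.0083 (MPA in promoter cells), -0.068 (U1U2 against NT, vehicle; nuclear only), -0.38 and -0.049 (promoter against NT, vehicle), -0.28 (promoter against NT, MPA; mitochondrial only), -0.043 and 0.025 (promoter against U1U2, MPA), 0.012 and 0.0022 (MPA response, U1U2 against NT) and 0.095 and -0.0088 (MPA response, promoter against NT).

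Leaving out each library in turn gave 0 to 1 members higher for MPA in NT cells and in U1U2 cells, 0 to 2 higher and 0 to 3 lower in promoter cells, 0 to 14 lower for U1U2 against NT in vehicle, and 0 to 1 higher and 2 to 13 lower for promoter against NT in vehicle. The mitochondrial median ranged from -0.73 to -0.35 for U1U2 against NT in vehicle, and the nuclear median from 0.096 to 0.31 for promoter against NT in vehicle and from -0.18 to 0.0092 for promoter against U1U2 with MPA. For the MPA response the mitochondrial median ranged from 0.12 to 0.50 (U1U2 against NT) and from 0.37 to 0.61 (promoter against NT), where the nuclear median ranged from -0.43 to -0.19. Low counts limit 5 of the 6 GC-rich members (all but NDUFB11), SDHA and NDUFV2. Low counts also limit NDUFS8 (29 to 171 per library), NDUFA3 (26 to 120), NDUFA2 (37 to 201) and the untested NDUFA7 (1 to 12).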
